A study of Mus musculus with 3 samples.

Results

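The genes described here are 9 members of the Ly6/uPAR family, whose proteins carry the three-finger fold: Pate1, Pate4, Ly6g5b, Ly6g5c, Lypd8, Ly6f, Ly6d, Ly6a and Ly6e. They were taken by name from the 24335 gene rows of a single-cell count matrix, and all 9 were found. The matrix came from the epididymis of untreated wild-type C57BL/6 mice aged 56 days. The duct was cut into caput (head), corpus (body) and cauda (tail), and every region gave 1 library. The labels used here give no number of animals per library. With 1 library per region no test was possible, and region and library cannot be told apart. Brackets hold exact 95% intervals, which reflect counting error and nothing else.

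Proteins of this family are small and rich in cysteines. Some are secreted, and others are held on the outer face of the cell membrane by a glycosylphosphatidylinositol (GPI) anchor. In the epididymis, sperm leave the testis unable to fertilise and mature in fluid that the principal cells of the epithelium fill with region-specific proteins, among them three-finger proteins, beta-defensins and lipocalins. Basal cells lie under the principal cells, and clear cells acidify the fluid.

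The members lie at 5 places in the genome (GENCODE M21 models, build GRCm38). Pate4 (chr9:35607093-35611941, reverse strand) and Pate1 (chr9:35685079-35687390, reverse strand) belong to the Pate cluster, and both lie inside the model of Pate2 (chr9:35570284-35690318, forward strand) on its opposite strand. Ly6g5c (chr17:35108279-35111991, forward strand) and Ly6g5b (chr17:35113948-35115428, reverse strand) are neighbours in the class III part of the major histocompatibility complex. Next to Ly6g5b, on the same strand, is Csnk2b (chr17:35116196-35122053, reverse strand), and the RefSeq model of Ly6g5b (chr17:35113944-35118558) runs into it. Ly6d (chr15:74762056-74763620, reverse strand), Ly6e (chr15:74955051-74959905, forward strand), Ly6a (chr15:74994877-74998031, reverse strand) and Ly6f (chr15:75268421-75272235, forward strand) are on chromosome 15. Lypd8 (chr11:58379043-58390728, forward strand) stands alone on chromosome 11. Reads of a family of copies can be assigned to more than 1 gene. Of the 50-base words in the last 500 bases of each member's longest transcript, 7 members shared 0 with another gene, Pate1 shared 6.21% with Pate2 on the opposite strand, and Ly6a shared 4.43% with Ly6c2 and 1 further gene model. The sources used here do not state whether counting used strand. Where the GENCODE models overlap, reads of Pate1 or Pate4 could therefore have been counted for the opposite gene Pate2, or the reverse. In the transcript ends searched, Pate1 shared the 6.21% of words given above with Pate2 and Pate4 shared 0. How many reads were counted for the wrong gene was not tested. The RefSeq model of Pate2 (chr9:35611800-35672889) is shorter and does not reach Pate1.

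The promoter tables of RefSeq (GRCm38.p6) held 5 of the 9 members, and these 5 are the ones with the sharpest regional levels. The 250 bases upstream of their starts are shown 5′ to 3′ for that reason, with 3 searched motifs in capitals: the TATA box TATAAA, the androgen receptor half-site AGAACA and the ETS core AGGAAG, each searched on both strands. No motif overlapped another in the windows shown. For Lypd8 the first of 2 listed starts is shown, and for Ly6g5b the second, which lies next to the GENCODE start. The bases after this Ly6g5b start were not found in a GENCODE transcript of the gene, unlike those after the other starts shown.
Ly6g5c (chr17:35108044-35108293, forward strand): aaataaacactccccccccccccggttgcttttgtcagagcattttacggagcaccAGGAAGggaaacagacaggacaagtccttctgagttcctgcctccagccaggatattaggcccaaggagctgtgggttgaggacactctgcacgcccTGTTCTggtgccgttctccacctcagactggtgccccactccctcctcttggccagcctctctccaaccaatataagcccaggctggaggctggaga
Ly6g5b (chr17:35115510-35115759, reverse strand): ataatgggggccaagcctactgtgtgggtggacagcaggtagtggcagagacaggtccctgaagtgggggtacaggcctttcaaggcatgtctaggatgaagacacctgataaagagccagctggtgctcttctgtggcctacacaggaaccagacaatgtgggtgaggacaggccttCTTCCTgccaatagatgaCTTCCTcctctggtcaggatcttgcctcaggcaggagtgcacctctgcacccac
Lypd8 (chr11:58378782-58379031, forward strand): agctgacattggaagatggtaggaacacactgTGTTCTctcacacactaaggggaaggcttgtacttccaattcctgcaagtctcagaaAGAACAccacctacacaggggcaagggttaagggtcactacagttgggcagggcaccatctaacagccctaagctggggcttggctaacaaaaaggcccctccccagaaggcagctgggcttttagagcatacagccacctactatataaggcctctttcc
Pate1 (chr9:35687372-35687621, reverse strand): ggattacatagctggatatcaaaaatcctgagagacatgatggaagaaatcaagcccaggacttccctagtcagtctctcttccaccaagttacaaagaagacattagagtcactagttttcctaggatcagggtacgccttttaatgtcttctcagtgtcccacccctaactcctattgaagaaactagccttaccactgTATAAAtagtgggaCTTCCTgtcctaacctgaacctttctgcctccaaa
Ly6f (chr15:75268171-75268420, forward strand): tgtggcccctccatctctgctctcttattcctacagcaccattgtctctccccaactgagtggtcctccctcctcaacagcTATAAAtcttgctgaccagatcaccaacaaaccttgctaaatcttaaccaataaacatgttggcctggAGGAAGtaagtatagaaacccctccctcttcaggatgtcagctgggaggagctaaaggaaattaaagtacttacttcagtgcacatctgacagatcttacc
With positions counted back from the start, the caput gene Ly6g5c held 1 androgen receptor half-site, at -97, and 1 ETS core, at -194. Lypd8 held 2 androgen receptor half-sites, at -218 and -161. Ly6g5b held 2 ETS cores, at -72 and -54. Pate1 held a TATA box at -49 and an ETS core at -35, and Ly6f held them at -169 and -101. Of 32851 promoters of the same length, 12.4% held TATAAA, 16.1% held AGAACA and 29.5% held AGGAAG. These matches describe letters and are not measured binding sites.

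Cells in which at least 200 genes were seen numbered 4939 in caput, 4831 in corpus and 4785 in cauda, with 41500792, 21495211 and 18341476 unique molecular identifiers (UMIs, counted RNA molecules) per deposited library. Caput was the deepest library, with a median of 5077 UMIs per cell against 2654 and 2198. Cells with over 20% mitochondrial UMIs made up 3.38%, 28.5% and 25.9% of the cells. The libraries shared 14 to 21 cell barcodes by pairs. Cells were assigned to 11 classes by marker genes, none of which was a member. Principal cells numbered 2452, 2504 and 1211, basal cells 428, 146 and 68, clear cells 575, 361 and 98, and fibroblasts 103, 333 and 1370. From 15.1% to 24.5% of a library's cells had no class. Levels are the UMIs of a gene scaled to the total UMIs of the class, as CPM. They are not divided by gene length and are compared within a gene only.

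The members fell into 3 kinds. Ly6g5b, Ly6g5c and Lypd8 were caput genes of principal cells. Pate1, Pate4 and Ly6f were higher in principal cells of corpus than of caput, and Pate1 and Ly6f were so in cauda too. Pate4 had too few UMIs to be measured between caput and cauda. Ly6d, Ly6a and Ly6e were present in all 3 regions with their highest levels outside the principal cells. In whole libraries, Ly6g5c counted 87812 UMIs in caput, 24 in corpus and 14 in cauda. Pate1 counted 33, 25425 and 2917. Ly6e counted 56667, 41228 and 32015. Pate4 was the least counted member, with 62, 357 and 44 UMIs. For a whole library, more cells of a type and more RNA per cell cannot be told apart, so the comparisons below use principal cells or other classes alone.

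**Figure D1:**
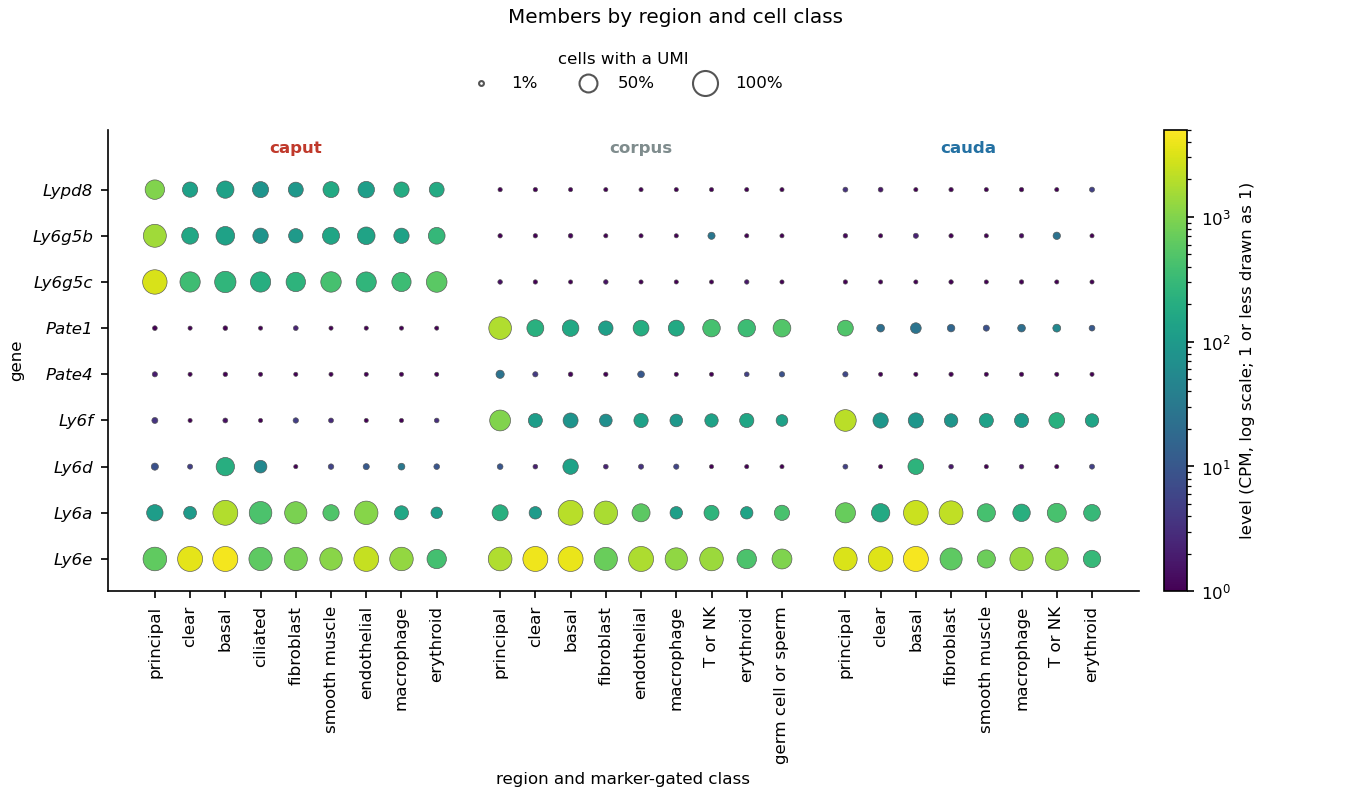
Level and spread of the 9 genes in every region and class with at least 50 cells. Colour gives the level in CPM on a log scale, dot size the percentage of cells with at least 1 UMI, columns are classes grouped by region and rows are genes. The upper 3 genes are coloured in caput, Pate1 and Ly6f in corpus and cauda, and Ly6d is largest in basal cells.

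The 3 regions were compared by pairs in principal cells, each time over all genes with at least 100 UMIs in the higher region, and a gene was counted as different where the ratio was at least 4 with an interval above 2. Caput is in both of its comparisons, so these share a library. Against corpus, 3 of the 9 members were higher in caput (Ly6g5b, Ly6g5c, Lypd8), where 7.02% of 10175 genes were, and 3 were higher in corpus (Pate1, Pate4, Ly6f), where 4.63% were. Against cauda, the same 3 members were higher in caput (all genes 8.02%), and 4 were higher in cauda (Pate1, Ly6f, Ly6a, Ly6e, all genes 4.13%). There 8 of the 9 were measured, since Pate4 had too few UMIs. Between corpus and cauda, 0 members passed in either direction, where 3.3% of 7540 genes were higher in corpus and 1.55% in cauda. Of the 9, 6 were measured in that comparison, and the 3 caput genes had too few UMIs. The members were chosen with earlier results of these data known, so these counts describe them and are no evidence on the family.

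**Figure D2:**
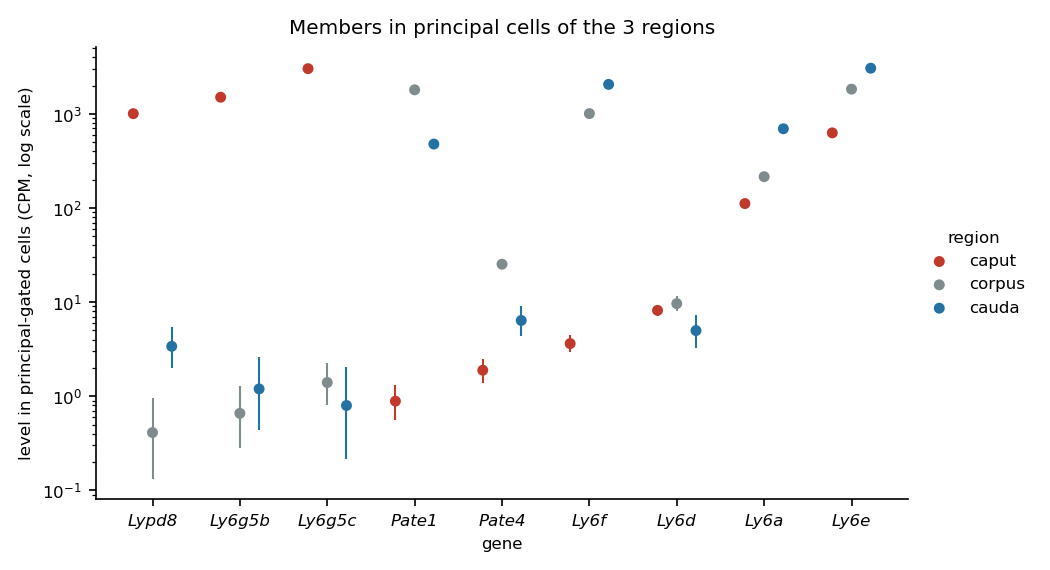
Level of each gene in the principal cells of caput, corpus and cauda, in CPM on a log axis. Points are the 3 libraries and bars the exact 95% Poisson intervals. Lypd8, Ly6g5b and Ly6g5c are highest in caput, Pate1, Pate4 and Ly6f are lowest there, Ly6d stays between 4.99 and 9.63 CPM, and Ly6a and Ly6e are highest in cauda.

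Ly6g5c, a three-finger gene without a well-known function, had the most UMIs of the 3 caput genes. In principal cells it stood at 3020.2 CPM (2999 to 3041) in caput, 1.4 CPM (0.815 to 2.24) in corpus and 0.798 CPM (0.217 to 2.04) in cauda. At least 1 UMI was seen in 95.4% of caput principal cells and in 0.599% and 0.248% of the others. With every cell thinned to 1000 UMIs the shares were 76.4%, 0.132% and 0.194% (2433, 2453 and 847 cells deep enough). The caput level was 2158 times (1348 to 3705) that of corpus and 3786 times (1479 to 13896) that of cauda, with 17 and 4 UMIs behind the low values. Over the alternatives tried the ratio to cauda ran from 1867 (deepest 5% of cells left out) to 6424 times (lead of the class doubled).

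Its neighbour Ly6g5b followed it across regions. Principal cells held 1501 CPM (1486 to 1516) in caput, 0.659 CPM (0.284 to 1.3) in corpus and 1.2 CPM (0.439 to 2.6) in cauda, and the caput level was 2279.8 times (1157 to 5281) that of corpus. In principal cells with at least 2000 UMIs it was 3986 times. Csnk2b, the adjoining gene for the regulatory subunit of casein kinase 2, was chosen after its values were seen. It stood at 549 CPM in caput, 139 in corpus and 98.9 in cauda. Its caput level was 3.95 times (3.76 to 4.16) that of corpus and 5.55 times (5.07 to 6.08) that of cauda. As the RefSeq models overlap, RNA of the pair in the shared stretch cannot be told apart. Of 19 other genes within 100 kb of the Ly6g5 pair, 12 had enough UMIs against corpus and 12 against cauda. Against corpus, 1 of them was higher in caput, the family member Ly6g6e (all genes 7.02%). Against cauda, 2 were higher in caput, Csnk2b and the family member Ly6g6d (all genes 8.02%). There Aif1, a macrophage gene outside the rule for naming genes, was higher in cauda (all genes 4.13%).

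Lypd8, known from the colon as an anchored protein that binds bacterial flagella, stood at 1005 CPM (993 to 1017) in caput principal cells, 0.412 CPM (0.134 to 0.961) in corpus and 3.39 CPM (1.98 to 5.43) in cauda. Its caput level was 2441 times (1046 to 7519) that of corpus and 296 times (185 to 509) that of cauda. Over the alternatives tried the ratio to cauda ran from 175 (deepest 5% of cells left out) to 553 times (principal cells with less fibroblast RNA). It was spread less evenly than the Ly6g5 genes. A UMI was seen in 59.5% of caput principal cells, and the tenth of them with the most Lypd8 held 78.3% of its UMIs, against 46.6% for Ly6g5b and 44.2% for Ly6g5c.

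UMIs of these genes also appeared in cells that are not principal. In the other 8 caput classes Ly6g5b stood at 5.45% to 19.5% of its principal level, Ly6g5c at 6.8% to 18.7% and Lypd8 at 8.14% to 18.3%. The summed principal marker list stood at 11.9% to 25.3% in the same classes. Ly6g5b and Ly6g5c were under that list in each of the 8 classes, and Lypd8 in all but macrophages or monocytes, where it stood at 18.3% and the list at 16.7%. A UMI of Ly6g5c, for example, was seen in 67.2% of caput erythroid cells (median 2598 UMIs per cell), which should lack it, against 95.4% of principal cells (median 7208). Ly6g5b departed from that form in 1 place, chosen after its values were seen. Among T or NK cells it had 6 UMIs in 5 of 90 corpus cells and 5 in 5 of 81 cauda cells, or 28 CPM (10.3 to 60.9) and 24.4 CPM (7.93 to 57), where principal cells of these libraries held 0.659 and 1.2 CPM.

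Within caput, Ly6g5b and Lypd8 were high in different principal cells. In principal cells of 6000 to 9000 UMIs, a window that holds depth nearly constant, 218 cells had at least 10 UMIs of Ly6g5b and 74 had at least 10 of Lypd8, and 0 cells had both, which, with 3 cells as the limit of a count of 0, allows a share of up to 1.38% of the Ly6g5b cells (the exact interval ends at 1.68%). The Ly6g5b cells had a median of 18 UMIs of Ly6g5b and 0 of Lypd8 (highest 5). The Lypd8 cells had a median of 34.5 UMIs of Lypd8 and 1 of Ly6g5b (highest 6). At all depths together, where deep cells reach the threshold more easily, 36 of 1030 Ly6g5b cells (3.5%) also had 10 UMIs of Lypd8, against 27.8% of the rest. Cells that hold RNA of 2 cells were not removed, and their part in the cells with both was not tested.

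In the window Ly6g5c went with Ly6g5b and was seldom high together with Lypd8. Of the 278 cells with 10 UMIs of Ly6g5c, 11 (3.96%) also had 10 of Lypd8, against 52.1% of the 121 others. Of the Ly6g5b cells in the window, 99.1% also had 10 UMIs of Ly6g5c, and of the 181 cells without Ly6g5b, 34.3% did. At the cut of 10 UMIs this gave 4 states of the caput principal cell in the window. There were 218 cells with Ly6g5b, 51 with Ly6g5c alone, 74 with Lypd8 and 56 with none of the 3. The word alone refers to the cut only. The 51 cells still held 703 CPM of Ly6g5b (619 to 795). The Ly6g5b cells held 2529 CPM of it, the Lypd8 cells 131 and the cells with none 149. The states differed in genes that were not used to define them. Adam28, a membrane metalloprotease, stood at 7384 CPM in the Ly6g5b cells, 2790.3 in the Ly6g5c cells, 379 in the Lypd8 cells and 344 in the cells with none. The beta-defensin gene Defb47 stood at 3499.9, 26392, 3557 and 1647 CPM, with its highest value in the Ly6g5c cells. Defb18, another beta-defensin gene, stood at 936, 7422, 7131 and 1234 CPM, high in both the Ly6g5c and the Lypd8 cells. Lcn5, a lipocalin that binds retinoids, stood at 349, 971, 1681 and 12426 CPM, highest where none of the 3 members was. Csnk2b stood at 694, 386, 271 and 276 CPM and was thus highest in the Ly6g5b cells.

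**Figure D3:**
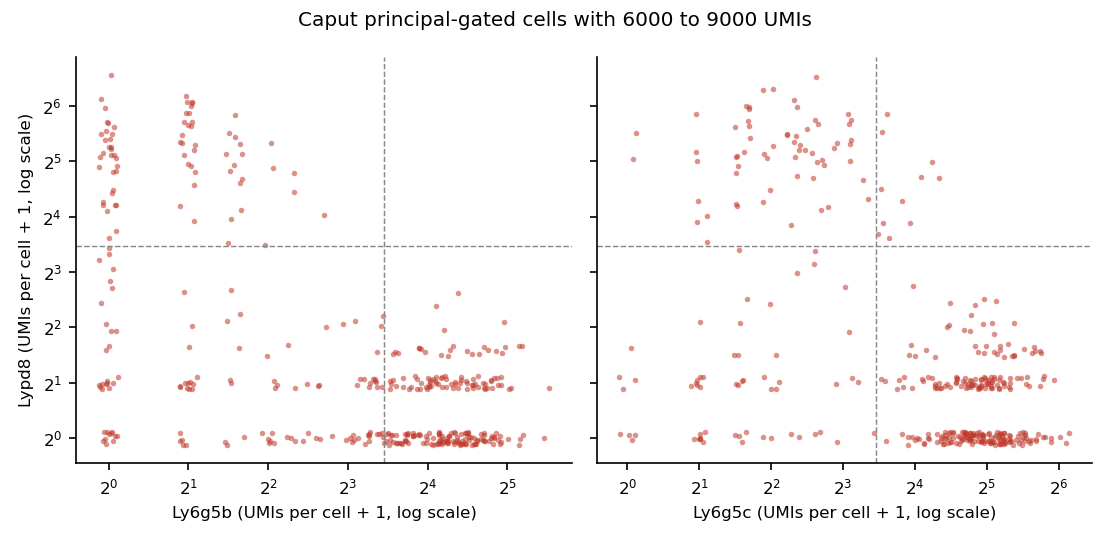
Counts of Lypd8 against Ly6g5b (left) and Ly6g5c (right) in each of 399 caput principal cells of 6000 to 9000 UMIs. Axes are UMIs per cell plus 1 on log scales, points are cells with a small random shift, and dashed lines mark 10 UMIs. The area past both lines is empty for Ly6g5b and holds 11 cells for Ly6g5c.

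The 3 genes also differed between principal cells grouped by other genes. Subsets were formed from short marker lists and are called by their leading genes. Cells with no leading list were left aside (1061 caput, 396 corpus and 830 cauda cells). In caput these held 26302 of the 38929 principal UMIs of Ly6g5b (2241 CPM) and 45173 of the 78310 of Ly6g5c (3849 CPM). Lypd8 stood at 391 CPM in them. Of the 4 caput subsets, the initial segment-like cells (336 cells) held 2140.4 CPM (2087 to 2195) of Ly6g5b and the Cst12 and Adam28 cells (114) held 2372 CPM (2291 to 2456). The Defb47 and Defb18 cells (506) held 379 CPM (363 to 395) and the Lcn5 and Rnase13 cells (430) held 274 CPM (259 to 290.3). Ly6g5c in the same order stood at 3811, 3751, 2619 and 545 CPM, high in the Defb47 and Defb18 cells and lowest, as Ly6g5b was, in the Lcn5 and Rnase13 cells. The order of the lower pair of Ly6g5b turned with depth. In cells under 6000 UMIs the Lcn5 and Rnase13 cells held 601 CPM of Ly6g5b and the Defb47 and Defb18 cells 414, and in cells of at least 15000 UMIs they held 103 and 371. Ly6g5c in the Lcn5 and Rnase13 cells stood at 1227 CPM in the former and 236 in the latter. Lypd8 stood at 358, 145, 3159 and 536 CPM, and its level in the Defb47 and Defb18 cells was 8.83 times (8.29 to 9.42) that of the initial segment-like cells. Of its 196 UMIs in the Cst12 and Adam28 cells, 78 were in 1 cell, without which it stood there at 89.3 CPM. With no lead required between the lists, which was tried after the data were seen and holds 707 Lcn5 and Rnase13 cells, Ly6g5b stood at 905 CPM in these and at 458 in the Defb47 and Defb18 cells, so the same order turned there too. Ly6g5c stood at 1557 and Lypd8 at 486 CPM in those Lcn5 and Rnase13 cells. The Defb47 and Defb18 subset was itself mixed, since 27 of the 51 cells with Ly6g5c alone and 52 of the 74 Lypd8 cells were assigned to it. Of the 218 Ly6g5b cells in the window, 150 (68.8%) were in no subset.

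Pate1, a gene of the prostate and testis expressed cluster whose protein is secreted, had the opposite regional level. Principal cells held 0.887 CPM (0.562 to 1.33) in caput, 1799.6 CPM (1776 to 1824) in corpus and 478 CPM (459 to 497) in cauda. A UMI was seen in 0.856%, 81.6% and 38.4% of the cells, and in 0.105%, 65.2% and 26.6% after thinning to 1000 UMIs. The corpus level was 2029 times (1352 to 3201) that of caput and 3.77 times (3.61 to 3.93) that of cauda.

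Pate4, whose protein is best known as a product of the seminal vesicle, was low everywhere but followed the same order. It stood at 1.89 CPM (1.4 to 2.5) in caput principal cells, 25.3 CPM (22.5 to 28.3) in corpus and 6.38 CPM (4.37 to 9.01) in cauda, from 49, 307 and 32 UMIs. The corpus level was 13.4 times (9.87 to 18.5) that of caput and 3.96 times (2.75 to 5.89) that of cauda, where it missed the ratio of 4 by little. That last value came from few molecules, 10 of the 32 cauda UMIs being in 1 cell. Without the deepest 5% of cells in each library it was 9.82 times. The caput level of Pate4 was 0.296 times that of cauda, and 0.748 times without those deepest cells.

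Of 6 other genes around Pate4 and Pate1 in the matrix, 3 had enough UMIs in caput against corpus. Of these, 2 were higher in corpus, the cluster genes Pate2 and Pate3 (all genes 4.63%). Pate2 stood at 15.8 CPM in caput principal cells, 631 in corpus and 83.6 in cauda. Pate3 had 340 UMIs in the corpus library and 0 in both others. With 3 UMIs over the class as the floor, its corpus level in principal cells was 208-fold that of caput and 40.3-fold that of cauda. The exact intervals start at 168 and 32.6 times and have no upper end.

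Ly6f, a chromosome 15 member of the Ly6 group, also started after caput but stayed. Principal cells held 3.63 CPM (2.93 to 4.44) in caput, 1007 CPM (989 to 1025) in corpus and 2055 CPM (2015 to 2095) in cauda. The cauda level was 567 times (463 to 702) that of caput and 2.04 times (1.99 to 2.1) that of corpus. Pate1 was thus highest in corpus and Ly6f in cauda, although both were near 0 in caput.

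Both genes differed between the principal subsets. In corpus, Pate1 stood at 208 CPM (165 to 258) in the 49 Lcn5 and Rnase13 cells, 696 CPM (658 to 736) in the 441 Spint4 and Defb23 cells and 2243 CPM (2211 to 2274) in the 1596 Defb22 and Bsph2 cells. In the Lcn5 and Rnase13 cells 47 of the 81 Pate1 UMIs were in 1 cell, and without it the level was 97.4 CPM (67.5 to 136). Ly6f in the same cells stood at 59, 345 and 1215 CPM. In cauda, Pate1 stood at 1165 CPM (1047 to 1294) in the 61 Defb22 and Bsph2 cells and 471 CPM (448 to 495) in the 316 Slc7a15 and Pnmt cells, where Ly6f stood at 2489 and 2300.4 CPM. Pate2 stood at 72.8 CPM (64.9 to 81.4) in the caput Lcn5 and Rnase13 cells and at 421, 635 and 679.9 CPM in the corpus subsets. In the same caput cells Pate1 stood at 0.705 and Ly6f at 3.52 CPM.

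**Figure D4:**
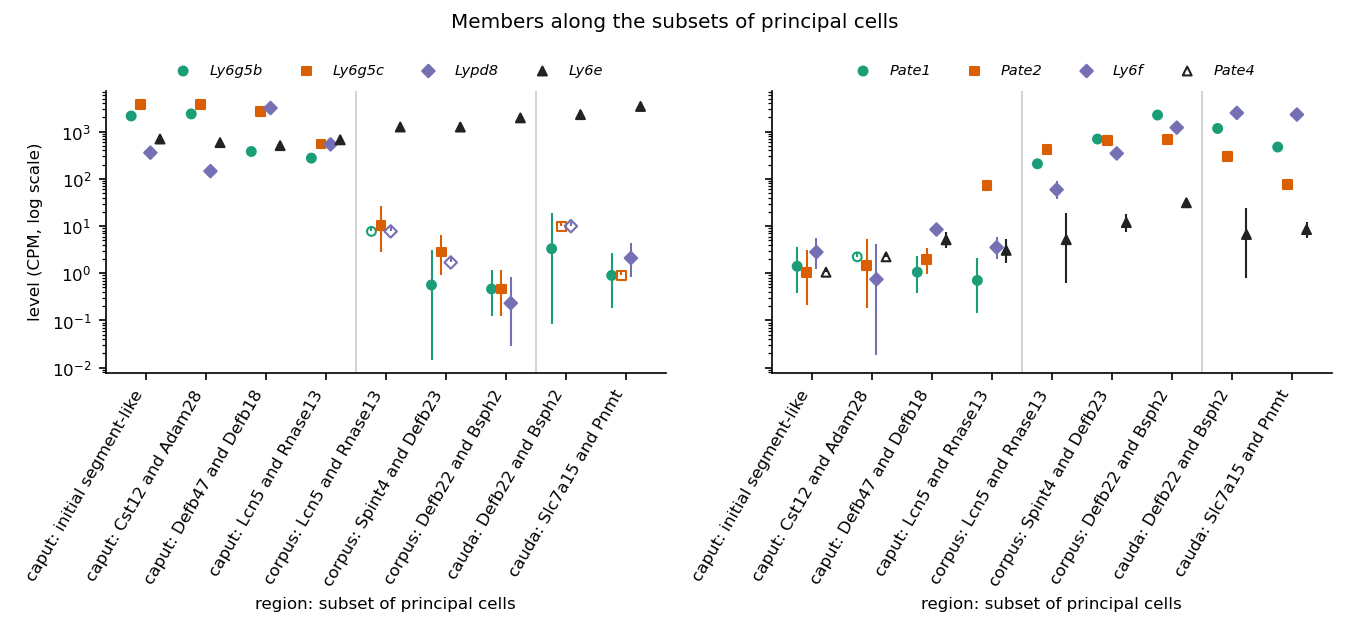
Levels along the subsets of principal cells, with Ly6g5b, Ly6g5c, Lypd8 and Ly6e on the left and Pate1, Pate2, Ly6f and Pate4 on the right. Each point is 1 subset of 1 library in CPM on a log axis, bars are exact 95% Poisson intervals, grey lines part the regions, and open symbols mark 0 UMIs drawn at the level of 3 UMIs. Lypd8 peaks in the Defb47 and Defb18 cells of caput, and Pate1 in the Defb22 and Bsph2 cells of corpus.

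Cell by cell, Pate1 and Ly6f were often found together. Of corpus principal cells with 2000 to 4000 UMIs, 76.2% of the 596 with Pate1 had a UMI of Ly6f (72.5 to 79.5), against 50.5% of the 109 without it (40.7 to 60.2). In cauda the shares were 93.3% of 75 and 88.9% of 81 cells, within their intervals. UMIs of both genes were again seen at low levels in other classes. Pate1 stood at 6.64% to 27.1% of its principal level in the other corpus classes and Ly6f at 6.79% to 15.4%, beside 10.6% to 28.8% for the principal marker list. In cauda the ranges were 1.74% to 11.2% and 4.08% to 10.9%, beside 6.18% to 12.2%.

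Ly6d, an anchored protein known from stratified epithelium and early lymphoid cells, was a basal cell gene. Basal cells held 208 CPM (193 to 224) in caput, 134 CPM (111 to 160.4) in corpus and 246 CPM (203 to 296) in cauda, and a UMI was seen in 52.8%, 36.3% and 38.2% of them. The basal level was 25.5 times (21.8 to 29.8) that of principal cells in caput, 13.9 times (10.7 to 18.1) in corpus and 49.3 times (31.8 to 79.4) in cauda. Between regions, the basal level in caput was 1.55 times (1.28 to 1.9) that of corpus, and the cauda level was 1.83 times (1.41 to 2.39) that of corpus. The next class was the caput ciliated class (80 cells, motile cilia genes), at 54 CPM (36.7 to 76.6) or 6.6 times (4.38 to 9.65) the principal level, from 31 UMIs in 19 cells. Caput macrophages held 30.1 CPM (13 to 59.2), from 8 UMIs. No corpus or cauda cell was assigned to the ciliated class.

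Ly6a, the surface antigen Sca-1 used to sort stem and progenitor cells, was high in basal cells and in fibroblasts of every region. Basal cells held 1879.7 CPM (1835 to 1926) in caput, 2019.8 CPM (1927 to 2116) in corpus and 2505 CPM (2363 to 2654) in cauda, and 97.1% to 99.3% of them had a UMI. Fibroblasts held 890.0 CPM (802 to 985), 1720.4 CPM (1651 to 1792) and 2234 CPM (2197 to 2272), and their cauda level was 2.51 times (2.27 to 2.79) that of caput. Endothelial cells held 1077 CPM (1020 to 1136) in caput and 580 CPM (496 to 674) in corpus, and cauda had too few of them. Clear cells were the lowest of the classes with at least 50 cells, at 100.4, 102 and 172 CPM.

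In principal cells Ly6a was low in caput and higher down the duct, at 111 CPM (107 to 116), 215 CPM (207 to 223) and 694 CPM (672 to 718). The cauda level was 6.23 times (5.93 to 6.55) that of caput and 3.23 times (3.07 to 3.4) that of corpus. RNA of fibroblasts, where Ly6a is high, moved the same way. All 12 fibroblast markers had UMIs in the principal cells of each region, none was at 0, and their summed level was 379, 1090 and 5688 CPM. In the principal cells at or under their library's median share of those markers, the summed level was 58.7, 214 and 2245 CPM, and Ly6a stood at 101 CPM (96.2 to 106), 181 CPM (172 to 189.6) and 660.2 CPM (635 to 686). Its cauda level in those cells was 6.53 times that of caput. As the cut was each library's own median, fibroblast RNA still differed between the regions in those cells. Its part in the Ly6a levels was not tested.

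Ly6e, an anchored protein induced by interferon in many tissues, was seen in most cells of every region. It was highest in basal cells, at 4262 CPM (4195 to 4331) in caput, 3792 CPM (3665 to 3922) in corpus and 4493 CPM (4301 to 4691) in cauda, and in clear cells, at 3506 CPM (3432 to 3581), 3997 CPM (3893 to 4103) and 3281 CPM (3137 to 3429.6). Neither class differed by more than 1.22 times between regions. Principal cells did, at 628 CPM (618 to 637), 1831 CPM (1807 to 1855) and 3055 CPM (3007 to 3104). The cauda level was 4.87 times (4.76 to 4.98) that of caput and 1.67 times (1.63 to 1.7) that of corpus. The basal level was 6.79 times (6.64 to 6.94) the principal level in caput, 2.07 times (2 to 2.15) in corpus and 1.47 times (1.4 to 1.54) in cauda. Along the subsets Ly6e stood at 504 to 696 CPM in caput, 1247 to 1952 in corpus and 2287 to 3406 in cauda. Fibroblasts went the other way, at 862, 723 and 599 CPM. In the principal cells with less fibroblast RNA, Ly6e stood at 609 CPM (597 to 621), 1908 CPM (1879.7 to 1937) and 3239 CPM (3184 to 3295). In cauda, Ly6a in principal cells was at 0.277 times its basal level, and Ly6e at 0.68 times its own.

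**Figure D5:**
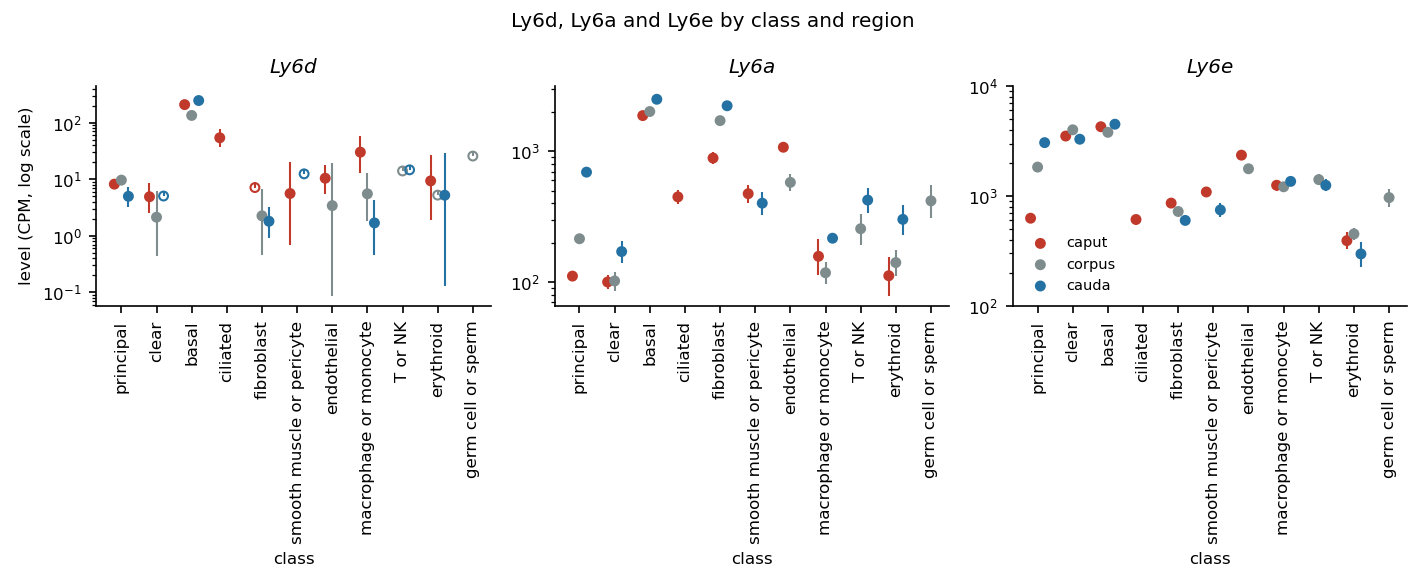
Levels of Ly6d, Ly6a and Ly6e by class and region, in CPM on log axes. Points are single libraries (red caput, grey corpus, blue cauda), bars are exact 95% Poisson intervals, and open symbols mark 0 UMIs drawn at the level of 3 UMIs. Ly6d stands out in basal cells, Ly6a in basal cells and fibroblasts, and Ly6e in basal and clear cells, with a spread between regions in principal cells.

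Other genes of the family and of its pathways were read from lists. Of 48 further three-finger genes, 29 were in the matrix and 8 had at least 200 UMIs in a library. For caput against corpus, 9 had enough UMIs in principal cells. Of these, 1 was higher in caput (Ly6g6e, all genes 7.02%) and 3 in corpus (Pate2, Pate3 and Cd177, all genes 4.63%). Cd177 is outside the rule for naming genes. For caput against cauda, 7 had enough. Of these, 2 were higher in caput (Ly6g6d, Gpihbp1, all genes 8.02%) and 2 in cauda (Pate2, Ly6c1, all genes 4.13%). For corpus against cauda, 5 had enough, with 2 higher in corpus (Pate2, Pate3, all genes 3.3%) and 0 in cauda (all genes 1.55%). Ly6c1, a close relative of Ly6a, stood at 2023 CPM in caput endothelial and 1964 in caput ciliated cells, where principal cells held 28.1. Gpihbp1, which carries lipoprotein lipase across capillaries, stood at 603 and 635 CPM in caput and corpus endothelial cells and at most 4.74 in principal cells. Ly6c2, known from monocytes and T cells, stood at 317 and 376 CPM in T or NK cells of corpus and cauda, at 124, 57.4 and 48.1 in macrophages or monocytes of the 3 regions, and at 1.08 to 6.98 in principal cells. Cd59a, an inhibitor of complement, was highest in smooth muscle cells or pericytes, at 249 CPM in caput and 203 in cauda, where principal cells held 92.1 and 28.1. The neighbours of the Ly6g5 pair were low, Ly6g6d at 10.5, 2.63 and 1.99 CPM in principal cells and Ly6g6e at 6.13, 1.32 and 3.59.

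Of 30 interferon response genes, 16, 16 and 12 had enough UMIs to be measured in caput against corpus, caput against cauda and corpus against cauda. Of these, 1 (Ifitm2, higher in caput, all genes 7.02%) passed between caput and corpus and 0 passed in either comparison with cauda. Over the 28, 29 and 25 listed genes with at least 20 UMIs, the median log2 ratio was 0.22 for caput over corpus, -0.53 for caput over cauda and -0.84 for corpus over cauda, beside medians over all such genes of 0.01, 0.05 and -0.02. The 4 with the most UMIs stood, in principal cells of caput, corpus and cauda, at 323, 118 and 210.4 CPM (Ifitm3), 399, 82 and 172 (Ifitm2), 28, 33.6 and 51.1 (Bst2) and 26.2, 14.2 and 35.3 (Psmb8). Of 28 genes listed for attachment and remodelling of the GPI anchor, 27 were in the matrix. In the same comparisons 21, 20 and 18 were measured. Of these, 1 passed in any comparison (Piga, outside the rule for naming genes and higher in corpus than in caput, all genes 4.63%). Of the listed genes with the most UMIs, Tmed10 stood at 741, 572 and 651 CPM and Pgap2 at 648, 1023 and 897. Dpm3 stood at 196, 245 and 216 CPM and Pigp at 192, 154 and 121.

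The genes most like each member were ranked by Pearson's r of log2(CPM + 10) over the 26 classes with at least 50 cells, in which classes of a library share its depth and free RNA, so r is a description. Pate1 was most like the beta-defensin gene Defb38 (r = 0.983), then the sperm-binding protein gene Bsph2, Spint3, Odam and Wfdc13. Ly6f was most like 4 other beta-defensin genes, Defb40 (r = 0.989), Defb43, Defb11 and Defb9, then Crisp1. Ly6g5c was most like the lipocalin gene Lcn6 (r = 0.999), then Cst12, Clpsl2, Adam28 and Defb18. Lypd8 was most like Defb45 (r = 0.996), then Clpsl2, Cst12, Lcn6 and Defb18, 4 of which the Ly6g5c ranking also held. Ly6g5b was most like Lcn10 (r = 0.972), Defb45, Ovch2, Cst12 and 1 gene known by a clone name. Pate4 was most like the casein gene Csn1s2a (r = 0.916), Aspg, Erich6 and 2 genes known by clone names. Ly6d was most like Ppp2r2c (r = 0.93), the cadherin gene Cdh3, Slco4a1, Ntf5 and Tmem40. Ly6a was most like Cyp2d22 (r = 0.873), Aebp1, Adm, Ugdh and Adamts1, and Ly6e like Zmynd8 (r = 0.871), Hist3h2a, Cd2ap, Serinc3 and Clcn3. Defb38, Bsph2, Wfdc13, Lcn10, Defb45, Cst12, Adam28, Defb18 and Crisp1 are also markers used to assign the cells. Among the members, Ly6g5c and Lypd8 had r = 0.995 over these classes, although in the depth window 11 of 278 caput principal cells with 10 UMIs of Ly6g5c (3.96%) had 10 of Lypd8, against 52.1% of the rest. At all depths the shares were 9.19% (133 of 1447 cells) and 29.7%.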

How the data were processed

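Per the labels, tissue was digested, strained and freed of red blood cells, and libraries were made with a Singleron GEXSCOPE kit. Per the submitters' processing notes, the authors used STAR 2.7.3a, UMI-tools (no version stated) and GRCm38.p6. The authors deposited raw UMI counts in 1 matrix, whose column names give the region. The sources used here do not state how cells were called or whether strand was used.

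Cells under 200 genes were left out. A cell took the class whose marker share was at least 0.1 after scaling to the cell ranked 50 for that list. This scaled share also had to be at least 2 times the second, with at least 3 markers seen. Whether the ranked cell was common to all regions is not stated here, so the principal cut may differ in marker level between them. In principal cells the principal markers summed to 167982 CPM in caput, 73040 in corpus and 50954 in cauda. The effect of a differing cut on the regional comparisons was not tested. Principal cells took a subset at a lead of 1.2 with 2 markers. Doublets were not called or removed. Summed counts had exact Poisson intervals, ratios exact conditional binomial intervals and shares Clopper-Pearson intervals, at 95%. A count of 0 was set to 3. Named genes were the members, the family genes with at least 200 UMIs in a library, the 4 interferon and 4 GPI genes with the most UMIs and the 5 genes most like each member. The members and lists were chosen with earlier results of these data known, and the depth windows and the threshold of 10 UMIs per cell after the data were seen. The size rule was tried on simulated class sums with known changes and counting error only. These sums held no variation between cells, animals or libraries, so they cannot show how the rule behaves under it. Python 3.11.15, numpy 2.4.6, scipy 1.17.1, scanpy 1.11.5, matplotlib 3.10.9, R 4.3.3 and edgeR 4.0.16 were used.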

Additional observations from a re-analysis of the deposited data

How the results depend on the processing

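Counts of genes past the size rule stayed within 1.5 times the main count in all 3 comparisons under TMM factors, the filters on cells (the deepest 5% left out included), the doubled lead, Leiden clusters, thinned sums and 3 alternatives added after the data were seen (shared barcodes left out, less fibroblast RNA, at least 2000 UMIs). With at least 20 UMIs they were 1987 for caput against corpus, 1885 for caput against cauda and 691 for corpus against cauda, and with a ratio of at least 2 they were 2655, 2770 and 1031, where the main counts were 1185, 1212 and 366. Both alternatives admit more genes by construction. The split of caput against cauda, 800 genes higher in caput and 412 in cauda, was 415 and 428 with sums thinned to the smaller total and 905 and 980 with at least 20 UMIs. That of corpus against cauda, 249 and 117, was 150 and 122, then 399 and 292, and 593 and 438 with a ratio of at least 2. TMM factors shifted all genes by 0.13 (log2) between caput and cauda. The number of principal cells moved most in cauda. From 1211 there it went to 645 with Leiden clusters, 827 with the doubled lead and 452 with at least 2000 UMIs. In corpus these were 2538, 2315 and 1475 against 2504, and in caput 2483, 2127 and 2400 against 2452.

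Of 286 alternative ratios of members in principal cells, 239 stayed within the main interval, 47 left it and 0 of the called ones reversed. Of 108 alternative levels of members in whole libraries, 30 left the main interval and 3 moved by over 1.5 times. Of 54 alternative shares of a library's cells with a UMI of a member (no thinning, or thinned to 500 UMIs), 43 left it and 41 moved by over 1.5 times, so a share holds for its thinning only. Pate4 in corpus over cauda passed the size rule with TMM factors (4.10), thinned sums (4.25) and without the deepest cells (9.82), against 3.96. Pate1 in corpus over caput was 3058 times in the principal cells with less fibroblast RNA, against 2029. With a pseudocount of 1, from 2 to 5 of the 5 genes most like each member were shared with the main ranking. No paired analysis was possible because every region has 1 library. Depth in the low regions limits the ratios of the caput genes: 3 UMIs equal 0.247 CPM in corpus and 0.598 CPM in cauda principal cells.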
